A study of Mus musculus with 6 samples.

Results

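The genes described here carry iron into cells, reduce it, store it, oxidise it or control those steps. They are the 10 symbols Tfrc, Trf, Steap3, Steap4, Fth1, Ftl1, Ireb2, Hamp, Cp and Heph, chosen by name, and all 10 have a row among the 24421 gene symbols of the deposited table. RNA was measured in 3 mammary tumours and 3 mammary glands of female FVB/NJ mice aged 5 months. The tumours, labelled mouse breast cancer, came from tumour-bearing animals of the genotype FVB/NJ; MMTV-Tg(LINK-A), and the glands from FVB/NJ; Tg(LINK-A) animals, so both groups carry a transgene for the long non-coding RNA LINK-A. MMTV is the mouse mammary tumour virus promoter, active in mammary epithelium, and the label of the glands does not name it. Tissue and donor genotype differ together and cannot be told apart. Nothing in the labels says whether libraries of a group are of different animals. The p-values therefore speak only to the spread among these libraries, which may be technical.

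Iron travels in blood bound to transferrin, the product of Trf, and enters cells when transferrin binds its receptor, the product of Tfrc. In the endosome a STEAP metalloreductase turns ferric into ferrous iron, and what a cell does not use is packed into ferritin, a shell of heavy (Fth1) and light (Ftl1) chains. Iron leaves through ferroportin, the product of Slc40a1, and the copper enzymes ceruloplasmin (Cp) and hephaestin (Heph) oxidise it so that transferrin can take it up. Hepcidin (Hamp), a liver hormone, removes ferroportin from the cell surface. The lactating mammary gland is known for making transferrin and the related lactoferrin, which it secretes into milk.

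Several of these transcripts carry a hairpin called the iron responsive element. When iron is scarce, the regulatory proteins encoded by Ireb2 and Aco1 bind it. Bound in front of the coding sequence it blocks translation of ferritin, and bound behind the coding sequence it protects the Tfrc mRNA from decay, so that of these only the Tfrc elements are known to act on the RNA level measured here. The elements are shown because they separate the members by a feature that the choice of genes did not use. The GENCODE M21 transcripts (GRCm38, the build also called mm10) of protein-coding genes were searched on the sense strand for the loop CAGTGN (N is any base), flanked by 5 paired bases on each side, with a C just before the 5 bases that lead into the loop. At least 4 of the 5 bases further out on each side had to pair too, and G-T pairs counted. Each sequence runs 5′ to 3′ over 27 bases, with the 6 bases of the loop in capitals, and the start and end are given on the genome.
Fth1, 5′ UTR, chr19:9982733-9982759, plus strand: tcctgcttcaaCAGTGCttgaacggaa
Ftl1, 5′ UTR, chr7:45459780-45459806, minus strand: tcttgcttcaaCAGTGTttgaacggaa
Slc40a1, 5′ UTR, chr1:45925466-45925492, minus strand: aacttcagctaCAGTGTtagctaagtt
Tfrc, 3′ UTR, chr16:32631220-32631246, plus strand: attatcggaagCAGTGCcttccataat
Tfrc, 3′ UTR, chr16:32631599-32631625, plus strand: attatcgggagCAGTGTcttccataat
Tfrc, 3′ UTR, chr16:32631664-32631690, plus strand: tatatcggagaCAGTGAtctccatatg
Tfrc, 3′ UTR, chr16:32631711-32631737, plus strand: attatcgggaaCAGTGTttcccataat
The search found such letters in the 5′ UTR of 6 of 20899 genes (0.0287%) and in the 3′ UTR of 11 of 21685 genes (0.0507%). Fth1 and Ftl1 were the only members with a match in the 5′ UTR and Tfrc the only one in the 3′ UTR, under this motif. A match is a description of the letters, and no match says only that these letters were not found.

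Values are FPKM, read fragments scaled to the length of the transcript and to the mapped total of its library. They summed to between 486080 and 582996 per tumour library and between 495986 and 510957 per gland library. No source used here gives read numbers, so that depth is unknown. Steps among low values put the other 5 libraries at 1.43 to 1.88 times the depth of tumour 1. The search allowed no library to come out shallower than tumour 1. Each step rests on a small part of the pairs of low values, such as 27 of 311 for gland 1. The 1.88 of gland 3 was reached through gland 1. Tumour 3 stood apart from tumours 1 and 2, with r = 0.944 and 0.961 across genes, against 0.982 between the other two, and gland 1 had r = 0.921 with gland 2 and 0.976 with gland 3. Markers of B cells and lymph node summed to 71.4, 65.8 and 3.61 FPKM in the tumours and to 294, 56.6 and 314 FPKM in the glands, in order, so that glands 1 and 3 stood above gland 2.

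Of the 10 members, 9 had a mean of at least 1 FPKM and were tested, and Hamp was not. In the tumours 3 rose (Tfrc, Trf and Cp), 2 fell (Steap4 and Heph) and 4 did not pass an adjusted p of 0.05 (Steap3, Fth1, Ftl1 and Ireb2), in limma with Benjamini-Hochberg adjustment over all 13364 tested genes. Over all tested genes 45.1% passed, 21.9% higher and 23.1% lower, so 5 of 9 is near the background and is no result about the members as a group. Heph, 1 of the 2 falls, passed the filter only through the glands. With any 1 library left out, 3 members passed as higher and 2 or 3 as lower. The median log2 fold change was 0.028 over the 9 members and 0.0083 over all tested genes. What differs between the members is the direction and size of each change. Fold changes are tumour minus gland on log2(FPKM + 1), a scale that understates the changes of low genes.

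**Figure D1:**
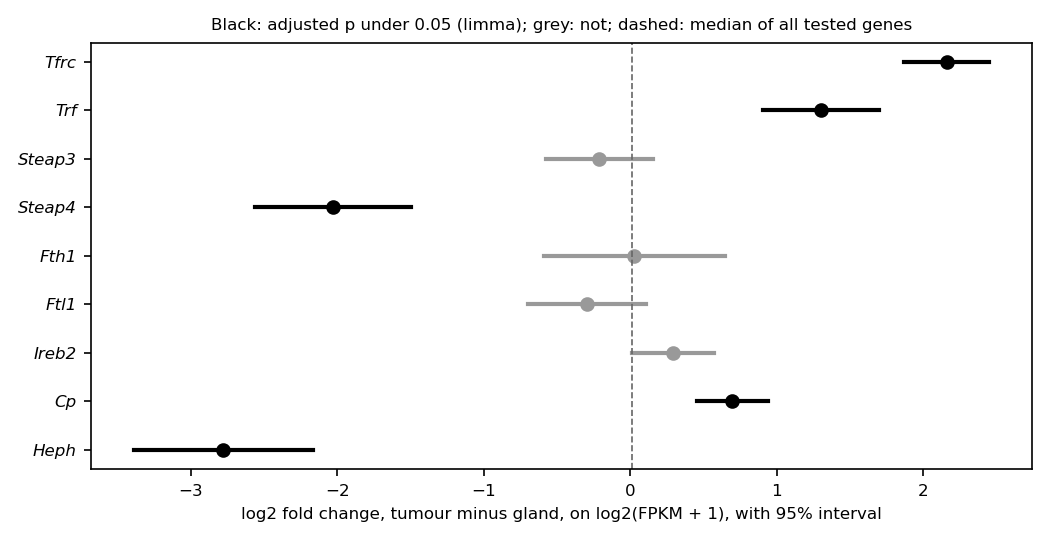
Log2 fold change of each tested member (x axis, tumour minus gland, on log2(FPKM + 1)) with its 95% interval, one gene per row. Tfrc, Trf and Cp lie to the right of 0 and Steap4 and Heph to the left with intervals clear of 0, while Fth1 lies at 0.028. The interval of Ireb2 also lies just clear of 0, although its adjusted p did not pass.

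The transferrin receptor gene Tfrc showed the largest rise of the members. Tfrc (chromosome 16, 32608920 to 32632794, plus strand) stood at 62.1, 59.5 and 49.4 FPKM in tumours 1 to 3, and at 11.9, 12.8 and 11.1 FPKM in glands 1 to 3. Every tumour stood far above every gland, and groups did not overlap, as was the case for 58.2% of tested genes. The means were 57.0 ± 6.76 FPKM in the tumours and 11.9 ± 0.814 FPKM in the glands (SD, n = 3 each), a 4.77-fold ratio. The log2 fold change was 2.16 (SE 0.12, limma adjusted p = 4.9e-05) and lay between 2.07 and 2.26 under all 15 alternatives, each of which kept the call. Among the members, Tfrc had the fifth highest level in the tumours and the eighth highest in the glands.

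Trf, the transferrin gene itself (chromosome 9, 103204001 to 103230444, minus strand), rose at a far higher level. It stood at 2509, 2783 and 3317 FPKM in tumours 1 to 3, and at 1278, 1134 and 1069 FPKM in glands 1 to 3. Every tumour was above every gland, and tumour 3 was the highest. The means were 2870 ± 411 FPKM in the tumours and 1160 ± 107 FPKM in the glands, a 2.47-fold ratio and a log2 fold change of 1.30 (SE 0.17, limma adjusted p = 0.00104). The call was lost when glands 1 and 3 were both left out, at 1.33 (adjusted p = 0.0931, the highest over the 15 alternatives, where the lowest was 7.4e-04), a fit with 1 gland left. The annotated gene Gm20425 overlaps Trf on the same strand, and reads of the pair cannot be told apart in the overlap. Luminal epithelium markers moved with these rises: 14 of 14 rose, and their summed level was 3271 to 3698 FPKM in the tumours and 1232 to 1313 FPKM in the glands. Of 12 alveolar and milk genes 6 rose, 2 fell and 4 did not pass, with sums of 22599 to 27586 FPKM in the tumours and 19038 to 23082 FPKM in the glands. The part of epithelial content in the rises of Tfrc and Trf was not tested. In whole tissue, fewer cells of a type and less RNA per cell cannot be told apart.

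The metalloreductase genes of the STEAP family did not move alike. Steap4 (chromosome 5, 7960457 to 7982213, plus strand), which encodes a plasma membrane and endosomal reductase abundant in fat tissue, stood at 17.7, 19.3 and 10.2 FPKM in tumours 1 to 3, and at 64.4, 62.0 and 69.5 FPKM in glands 1 to 3. All tumours lay below all glands, and tumour 3 was the lowest. The means were 15.7 ± 4.84 FPKM in the tumours and 65.3 ± 3.81 FPKM in the glands, a ratio of 0.241. Steap4 fell by 2.03 on the log2 scale (SE 0.22, limma adjusted p = 5.6e-04), and leaving out glands 1 and 3 ended its call (-1.96, adjusted p = 0.0577, range 5.5e-05 to 0.0577 over the alternatives). Steap3 (chromosome 1, 120190757 to 120272705, minus strand), the endosomal reductase known from red cell precursors, stood at 25.6, 31.9 and 21.2 FPKM in tumours 1 to 3, and at 29.9, 31.4 and 29.2 FPKM in glands 1 to 3. Tumour 2 was above all glands and the other tumours were below them. Steap3 did not pass, with a log2 fold change of -0.21 (95% interval -0.58 to 0.15, limma adjusted p = 0.301). It was -0.073 without tumour 3 and -0.36 without tumour 2. Within each library, Steap4 stood at 0.483 to 0.690 of the FPKM of Steap3 in the tumours and exceeded it by 1.98- to 2.38-fold in the glands. On the log2(FPKM + 1) scale the ratio of Steap4 to Steap3 was -0.73 ± 0.24 in the tumours and 1.09 ± 0.13 in the glands (SD, n = 3 each). Its exact permutation p was 0.1, the smallest that 3 against 3 allows (0.133 adjusted over the 4 ratios tested).

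Adipocyte markers moved with Steap4. All 12 fell, and their summed level was 125 to 440 FPKM in the tumours, lowest in tumour 3, and 12556 to 14470 FPKM in the glands. Macrophage markers summed to 427 to 1010 FPKM in the tumours, also lowest in tumour 3, and 1371 to 1573 FPKM in the glands. Erythroid markers summed to 388 to 1268 FPKM in the tumours, again lowest in tumour 3, and 4232 to 8925 FPKM in the glands. The luminal epithelium and neutrophil lists were higher in sum in the tumours. The part of any list in the fall of Steap4 was not tested.

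**Figure D2:**
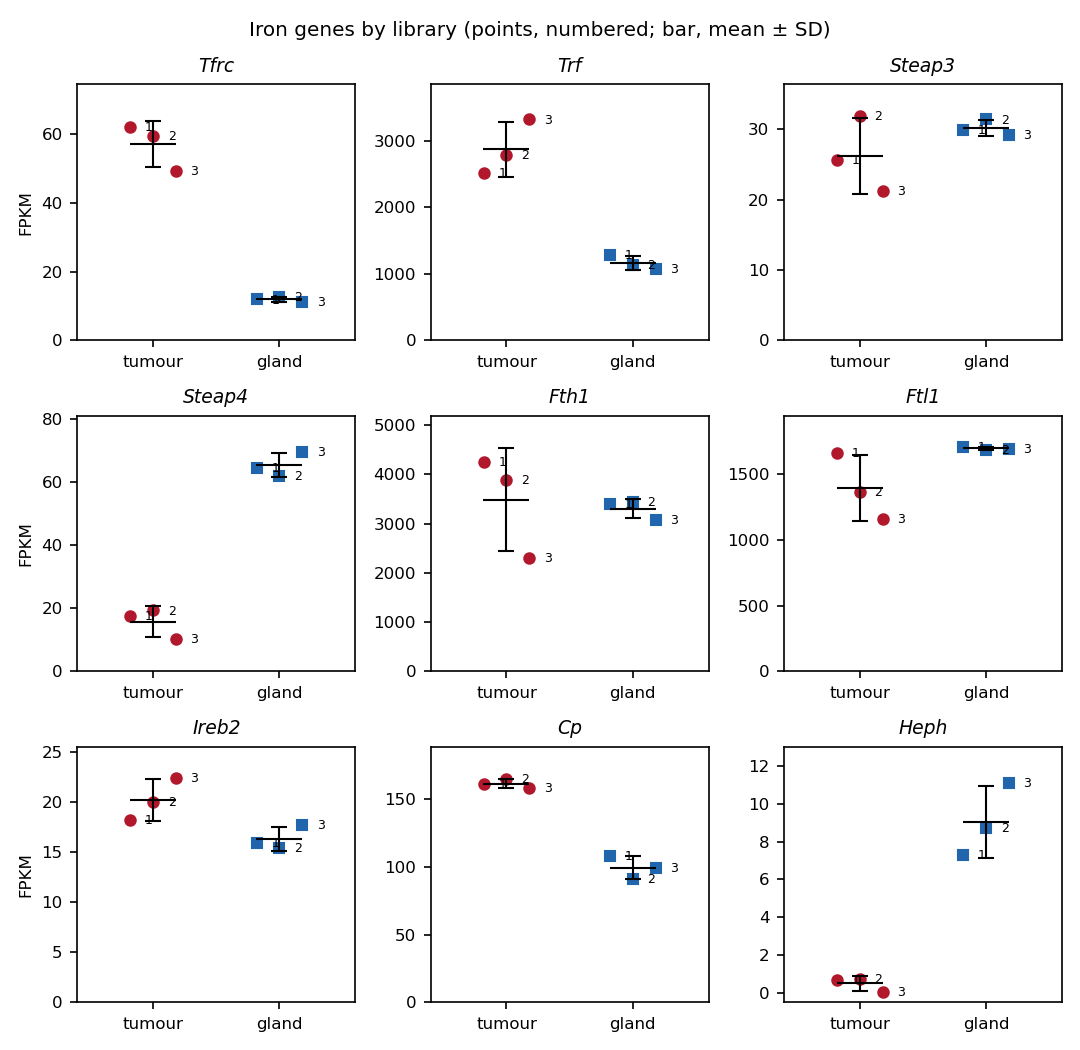
FPKM of the 9 tested members in each library (y axis, starting at or just below 0), tumours left and glands right; points are libraries with their numbers and bars are the mean ± SD of 3. Tfrc, Trf and Cp are higher in all 3 tumours and Steap4 and Heph lower, while the tumours spread widely around the glands for Fth1 and Steap3.

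Neither of the ferritin genes passed the test. By mean level among the members, Fth1 was the highest in both tissues, and Ftl1 had rank 3 in the tumours and rank 2 in the glands. Fth1 (chromosome 19, 9980598 to 9985098, plus strand), the heavy chain with ferroxidase activity, stood at 4258, 3891 and 2297 FPKM in tumours 1 to 3, and at 3395, 3433 and 3081 FPKM in glands 1 to 3. Tumours 1 and 2 were above all glands and tumour 3 was below them. The log2 fold change of Fth1 was 0.028 (95% interval -0.59 to 0.65, limma adjusted p = 0.943). It had no settled direction: it was 0.30 without tumour 3, -0.14 without tumour 1, -0.077 without tumour 2, -0.021 without gland 3, -0.029 without glands 1 and 3 and -0.041 at a common sum per library. A change within that interval was not detectable with these libraries.

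Ftl1 (chromosome 7, 45457944 to 45459884, minus strand), the light chain that aids mineral formation, stood at 1667, 1364 and 1161 FPKM in tumours 1 to 3, and at 1712, 1687 and 1697 FPKM in glands 1 to 3. The glands lay close together, and all tumours were below them. The log2 fold change was -0.30 (95% interval -0.70 to 0.10, limma adjusted p = 0.192). With quantile normalization Ftl1 passed as lower (-0.44, adjusted p = 0.00676), while its adjusted p ranged up to 0.608 over the alternatives. It also passed at a common sum per library (-0.37, adjusted p = 0.0326) and without tumour 1 (-0.43, adjusted p = 0.0277), and stood at -0.17 without tumour 3. Both ferritin genes have near-identical copies in the mouse genome, among them Ftl1-ps1, so the reads counted for each are uncertain. The annotated gene Gm22133 also overlaps Ftl1 on the same strand, and Gm10252 on the other. Fth1 exceeded Ftl1 by 2.55-, 2.85- and 1.98-fold in the tumours, in order, and by 1.98-, 2.03- and 1.82-fold in the glands. On the log2(FPKM + 1) scale that ratio differed by 0.33, with an exact permutation p of 0.3, and by 0.21 without tumour 2 and by 0.47 without tumour 3.

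The balance of uptake receptor and storage chain was compared within each library. Taken as a difference of log2(FPKM + 1) within a library, Tfrc over Fth1 was -6.08, -6.01 and -5.51 in the tumours, in order, and -8.04, -7.96 and -7.99 in the glands. The groups differed by 2.13 and did not overlap. For each of the 4 ratios, the group difference on this scale is the difference between the fold changes of its 2 genes. Its size is therefore no separate result. The exact permutation p was 0.1, the smallest that the design allows, and 0.133 adjusted over the 4 ratios.

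**Figure D3:**
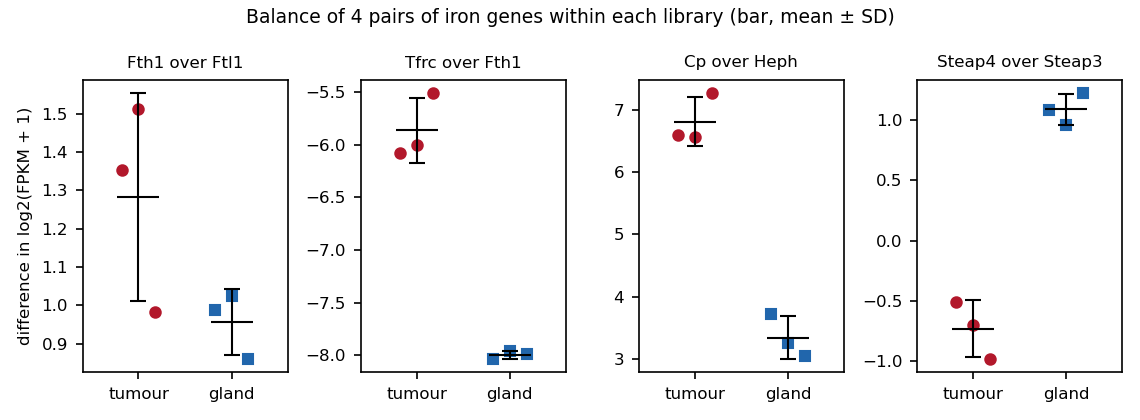
Difference in log2(FPKM + 1) between the 2 genes named above each panel, in each library, tumours left and glands right; bars are the mean ± SD of 3, and each y axis has its own range and does not start at 0. Tfrc over Fth1 and Cp over Heph are higher in all 3 tumours, Steap4 over Steap3 is lower, and Fth1 over Ftl1 overlaps between the groups.

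Of the regulators, Ireb2 (chromosome 9, 54863789 to 54912530, plus strand), which encodes iron regulatory protein 2, stood at 18.2, 20.01 and 22.5 FPKM in tumours 1 to 3, and at 15.9, 15.4 and 17.7 FPKM in glands 1 to 3. The groups did not overlap, by a margin of less than 1 FPKM. Ireb2 did not pass, at a log2 fold change of 0.29 (SE 0.12, 95% interval 0.01 to 0.57, limma adjusted p = 0.0868, range 0.0525 to 0.313 over the alternatives). That protein is known to be controlled by iron-dependent breakdown, which RNA does not show. Hamp (chromosome 7, 30942368 to 30944032, minus strand) was listed at 0 in all 6 libraries, and so was its copy Hamp2. Of 10 hepatocyte markers, Ttr and Fga were listed at 0 in all 6 libraries, Alb, Apoa1 and Serpina1c in all tumours, and Apob and Ahsg in all glands. Only 3 of the 10 reached the filter, of which 2 fell and 1 did not pass, and the list summed to 3.95 to 11.9 FPKM in the tumours and 94.6 to 163 FPKM in the glands.

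The ferroxidase genes moved in opposite directions. Cp (chromosome 3, 19957054 to 20009145, plus strand), the ferroxidase of plasma that also occurs anchored to cell membranes, stood at 161, 165 and 158 FPKM in tumours 1 to 3, and at 108, 91.3 and 99.1 FPKM in glands 1 to 3. All tumours lay above all glands, and the tumours lay close together. The means were 162 ± 3.38 FPKM in the tumours and 99.5 ± 8.34 FPKM in the glands, a ratio of 1.62 and a log2 fold change of 0.70 (SE 0.10, limma adjusted p = 0.00179). Cp kept its call under all 15 alternatives, between 0.61 and 0.82. Hps3 overlaps Cp on the other strand, at 4.73 ± 1.44 FPKM in the tumours and 6.47 ± 2.02 FPKM in the glands, and the strandedness of the libraries is not given.

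Heph (chromosome X, 96455359 to 96574485, plus strand), the membrane-bound ferroxidase known from the gut lining, stood at 0.677, 0.748 and 0.0333 FPKM in tumours 1 to 3, and at 7.29, 8.73 and 11.1 FPKM in glands 1 to 3. All tumours lay below 1 FPKM and all glands above 7 FPKM. The annotated genes Rpl17-ps8 and Gm14935 overlap the span of Heph on the same strand and Hsf3 on the other, and how reads there were assigned is not known. Heph fell by 2.78 on the log2 scale (SE 0.26, limma adjusted p = 2.8e-04), and its log2 fold change was -4.34 with a pseudocount of 0.1, which shows how far the scale compresses low values. It passed the filter only through the glands, so its levels had to differ. Its fall was the largest of the members. The adipocyte, macrophage and erythroid lists were lower in sum in the tumours too, and their part in the fall of Heph was not tested. On the log2(FPKM + 1) scale, Cp over Heph was 6.60, 6.57 and 7.27 in the tumours, in order, and 3.72, 3.25 and 3.05 in the glands, a difference of 3.47 (exact permutation p = 0.1, 0.133 adjusted over the 4 ratios). The difference was 5.04 with a pseudocount of 0.1, so its size depends on the pseudocount. In plain FPKM, Cp stood at 238, 221 and 4747 times Heph in the tumours and at 14.8, 10.5 and 8.93 times in the glands.

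The order of levels, which FPKM allows to be read between genes, changed accordingly. In the tumours it ran Fth1, Trf, Ftl1, Cp, Tfrc, Steap3, Ireb2, Steap4, Heph and Hamp. There the libraries of Fth1 overlapped those of Trf, those of Steap3 overlapped those of Ireb2, and those of Ireb2 overlapped those of Steap4. In the glands the order ran Fth1, Ftl1, Trf, Cp, Steap4, Steap3, Ireb2, Tfrc, Heph and Hamp, with every neighbour separate in the libraries measured. The coefficient of variation between libraries was larger in the tumours for 8 of the 9 tested members. That count was not compared with all tested genes and is no result about the members. The coefficient was 2.09% in the tumours and 8.39% in the glands for Cp, the exception, and 29.9% and 5.84% for Fth1. For Heph, at a mean of 0.486 FPKM in the tumours, the SD was smaller there (0.394 FPKM, against 1.93 FPKM in the glands).

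Among the members and the wider iron lists, the nearest profile was found by the root mean square distance between log2 values centred over the 6 libraries, out of 101 genes. Trf was nearest to Abcb6, a porphyrin transporter gene (0.137). Steap4 was nearest to Bmper, a BMP-binding protein gene (0.179), Heph to Slc39a8 (0.276) and Ftl1 to Hscb (0.07). Tfrc had no close neighbour, with 0.421 to Fam132b, the largest nearest distance of the 9 members. With 6 libraries in 2 groups such distances mainly compare the step between the tissues.

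The other genes of iron handling were counted in 6 lists of 106 symbols, of which 100 were in the table and 93 were tested. In the tumours 13 rose, 26 fell and 54 did not pass, or 41.9% called against 45.1% of all tested genes, with a median log2 fold change of -0.11. By list, the share called ran from 24% for iron-sulphur assembly to 58.8% for hepcidin control. Left out together, glands 1 and 3 took the counts to 3 and 7. The rises numbered 8 without tumour 2 and 6 without gland 3. With any 1 library left out, the other counts below moved by over 1.5 times for the falls of hepcidin control (4 without gland 3, 5 without tumour 2 or gland 2), haem synthesis (5 without tumour 1) and iron-sulphur assembly (2 without gland 2). The rises of hepcidin control went to 1 without tumour 2, gland 1 or gland 3, those of haem synthesis to 1 without tumour 1, tumour 2, gland 2 or gland 3, and those of iron sensing to 1 without tumour 2, tumour 3, gland 1 or gland 2 and to 0 without gland 3. The rises of iron-sulphur assembly numbered 0 without tumour 2 or any 1 gland, 1 without tumour 1 and 4 without tumour 3. Without glands 1 and 3, at most 1 gene of any list fell other than 2 of hepcidin control.

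Of 15 tested transporters and carriers 3 rose, 3 fell and 9 did not pass. The rises were led by the secreted iron or siderophore binders Ltf (5.45) and Lcn2 (4.77), both also neutrophil granule genes. Ltf stood at 1672, 1746 and 2008 FPKM in tumours 1 to 3, and at 40.1, 42.1 and 38.5 FPKM in glands 1 to 3. Lcn2 stood at 7617, 7467 and 7938 FPKM in the tumours and at 301, 268 and 274 FPKM in the glands, in order. The neutrophil markers summed to 3210, 1911 and 271 FPKM in the tumours, in order, and to 53.02, 32.4 and 51.7 FPKM in the glands. Of 8 tested 1 rose, 1 fell and 6 did not pass, and their part in the rises of Ltf and Lcn2 was not tested. Slc39a8, a zinc and iron importer of the ZIP family, fell to 2.38 ± 0.979 FPKM in the tumours against 18.2 ± 2.79 FPKM in the glands, a log2 fold change of -2.54 (SE 0.25, limma adjusted p = 3.4e-04). Its relative Slc39a13 fell by 0.77, and lost its call without glands 1 and 3 (adjusted p = 0.0811, range 0.00108 to 0.0811). Slc39a14 (-0.36, adjusted p = 0.0524) and the iron chaperone gene Pcbp2 (-0.055) did not pass. Slc39a14 passed as lower under quantile normalization (-0.43, adjusted p = 0.0256) and median-of-ratios scaling (-0.37, adjusted p = 0.0307), within a range up to 0.437 over its alternatives. Pcbp2 was -0.10 without tumour 2 and 0.0063 without tumour 1. Ferroportin, Slc40a1, was followed because of its iron responsive element and was chosen after its values were seen. It stood at 5.66, 4.52 and 3.71 FPKM in tumours 1 to 3, and at 9.55, 9.72 and 8.54 FPKM in glands 1 to 3, with all tumours below all glands, and fell by 0.88 (SE 0.16, limma adjusted p = 0.00432). Leaving out glands 1 and 3 ended that call (-0.94, adjusted p = 0.109, the highest over its alternatives).

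Ferroportin is abundant in macrophages that recycle red cells, and of 11 tested macrophage markers 8 fell and 3 did not pass. Their summed level was 427 to 1010 FPKM in the tumours and 1371 to 1573 FPKM in the glands, and their part in the fall of Slc40a1 was not tested. Of the genes with the element in the 5′ UTR, Alas2 fell, Slc40a1 fell, Fth1 and Ftl1 did not pass, and Ppp1r1b, a phosphatase inhibitor gene chosen after its values were seen, rose by 1.80 (SE 0.17, limma adjusted p = 3.4e-04). Of the 11 genes with it in the 3′ UTR, 8 were tested and 2 of them passed, both higher, Tfrc and 2010111I01Rik (1.76), also chosen after its values were seen. Of all tested genes 45.1% passed and 21.9% were higher, so 2 of 8 is no result about genes with the element.

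**Figure D4:**
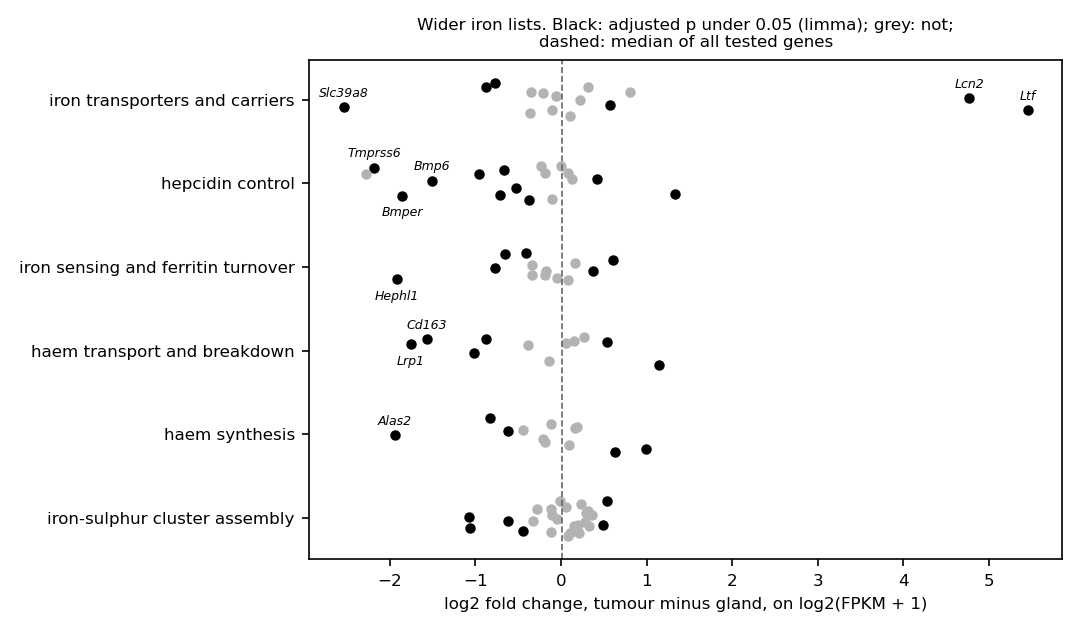
Log2 fold change (x axis, tumour minus gland, on log2(FPKM + 1)) of the 93 tested genes of the 6 wider iron lists, one point per gene. Genes beyond 1.4 in either direction are named except Hfe2, at -2.28 and not past the threshold. Most points lie within 1 of the dashed line, the median of all tested genes.

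Of 17 tested genes of hepcidin control 2 rose, 8 fell and 7 did not pass. That is 58.8% called, against 45.1% of all tested genes, where 21.9% were higher and 23.1% lower. The known pathway sets hepcidin in liver, and Hamp itself was listed at 0 here. Fam132b, which encodes the hepcidin-lowering hormone erythroferrone, rose to 2.50 ± 0.187 FPKM in the tumours against 0.384 ± 0.0428 FPKM in the glands (1.34, SE 0.16). Tmprss6, a protease that restrains hepcidin, fell to 0.0535 ± 0.0557 FPKM in the tumours against 3.83 ± 0.838 FPKM in the glands (-2.18, SE 0.20), Bmper fell by 1.85 and the ligand gene Bmp6 by 1.50. Fam132b reached the filter only through the tumours, and Tmprss6, Bmper and Bmp6 only through the glands, so their levels had to differ. They are part of the counts above, which are no result about the list. The receptor gene Bmpr1a (0.13) and Smad1 (0.078) did not pass. With 1 library left out, Bmpr1a ran between 0.067 (without tumour 3) and 0.22 (without tumour 1), and Smad1 between 0.033 (without gland 2) and 0.12 (without tumour 1).

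Of 13 tested genes of iron sensing and ferritin turnover 2 rose, 4 fell and 7 did not pass. Aco1, which encodes iron regulatory protein 1, fell to 27.8 ± 0.699 FPKM in the tumours against 44.4 ± 3.43 FPKM in the glands (-0.66, SE 0.10). Ncoa4, the receptor that delivers ferritin to lysosomes, fell to 15.2 ± 1.02 FPKM in the tumours against 26.6 ± 1.30 FPKM in the glands (-0.77, SE 0.10). Both lost their call without glands 1 and 3, with adjusted p = 0.0927 for Aco1 and 0.075 for Ncoa4, the highest over their alternatives. Hephl1, another copper ferroxidase gene known from hair and skin, stood at 0.329 ± 0.197 FPKM in the tumours and 3.97 ± 0.288 FPKM in the glands and fell by 1.91. It too reached the filter only through the glands. The cullin gene Cul1 rose by 0.61, without a call when gland 3 was left out (adjusted p = 0.0508, range up to 0.173).

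Of 11 tested genes of haem transport and breakdown 2 rose, 4 fell and 5 did not pass. Abcb6 rose by 1.14. Lrp1, a receptor for haem bound to haemopexin, fell by 1.75. Cd163, the macrophage receptor for haemoglobin, fell by 1.56, and the haem transporter gene Slc48a1 fell by 1.01. Without glands 1 and 3 the calls of Abcb6 (adjusted p = 0.0533), Lrp1 (adjusted p = 0.0686) and Slc48a1 (adjusted p = 0.103) were lost, each the highest over its alternatives. The haptoglobin gene Hp (-0.38) did not pass and was 0.37 without tumour 3, and Hmox2 (0.060), a haem oxygenase, did not pass and was -0.025 under quantile normalization and -0.0073 at a common sum.

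Of 12 tested haem synthesis genes 2 rose, 3 fell and 7 did not pass. Alas2, the first enzyme of the pathway in red cell precursors, fell to 5.62 ± 1.21 FPKM in the tumours against 25.0 ± 8.97 FPKM in the glands (-1.94, SE 0.25). It is itself 1 of the 5 tested erythroid markers, of which 2 fell and 3 did not pass. That is 40% called, against 45.1% of all tested genes, where 23.1% were lower, and is no result about the list. Slc4a1 was listed at 0 in all tumours and Rhag in all 6 libraries. The summed level of the list was 388 to 1268 FPKM in the tumours and 4232 to 8925 FPKM in the glands, and its part was not tested. Alas1, the enzyme of other tissues, fell by 0.62 and the last enzyme, Fech, by 0.82, while Cpox rose by 0.997. Calls were lost without glands 1 and 3 for Alas1 (adjusted p = 0.202), Fech (adjusted p = 0.0552) and Cpox (adjusted p = 0.116), and for Alas1 also without gland 1 (adjusted p = 0.051).

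Of 25 tested genes of iron-sulphur cluster assembly 2 rose, 4 fell and 19 did not pass. The scaffold gene Iscu fell to 42.3 ± 9.99 FPKM in the tumours against 87.8 ± 6.18 FPKM in the glands (-1.06, SE 0.18), and Bola3, which helps pass clusters on to their targets, fell to 30.6 ± 2.05 FPKM in the tumours against 65.3 ± 6.40 FPKM in the glands (-1.07, SE 0.11). Iscu lost its call without glands 1 and 3 (adjusted p = 0.0887, the highest over its alternatives). Fdx1, a ferredoxin gene, fell by 0.61 and lost its call without gland 1 (adjusted p = 0.0574), gland 2 (adjusted p = 0.0595) or glands 1 and 3 (adjusted p = 0.164). Nubp1 rose by 0.54, a call lost under the replicate block (adjusted p = 0.0658). The call was also lost without any of tumours 1 and 2 and glands 1 to 3 (adjusted p = 0.0539 to 0.0891) and without glands 1 and 3 together (adjusted p = 0.118). Hspa9 (0.21) and Glrx5 (-0.046) did not pass, and Glrx5 was 0.12 without tumour 3 and 0.027 without gland 2.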

How the data were processed

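The deposited table gives 1 value per symbol and library. Its values were taken as FPKM, normalized by the authors, because its header names no unit and the values are neither whole nor of equal sum. HISAT2, StringTie and mm10 are named per the submitters' processing notes, without versions or roles, and their annotation, read length and strandedness are not known here. Genes reaching a mean of 1 FPKM over all libraries were tested on log2(FPKM + 1) with limma 3.58.1 (mean-variance trend, R 4.3.3), 2-sided, with Benjamini-Hochberg adjustment over all of them. FPKM carry no counts, so counting error did not enter the model. Ratios had 2-sided exact permutation tests over 20 arrangements. The limma fit was tested on simulated data. Members and lists were chosen with earlier results of these data known. In each wider list the rule named up to 4 called genes, by smallest p, and up to 2 uncalled ones, by highest mean. Positions and transcripts are from GENCODE M21. Alternatives were a pseudocount of 0.1, no filter, a filter at a mean of 5 FPKM, a common sum per library, median-of-ratios scaling, quantile normalization, a replicate block, no trend, and libraries left out.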

Additional observations from a re-analysis of the deposited data

How the results depend on the processing

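Depth is unknown, so no limit can be put on values near 0, such as those of Heph in the tumours and Hamp. Tfrc and Cp kept their calls wherever they were tested. So did Heph, but it passed the filter only through the glands, so its levels had to differ. Leaving out glands 1 and 3, where the lone gland is assumed to vary like the tumours, gave 1 member lower, 760 genes higher and 1098 lower over all, and 3 and 7 over the wider lists. It ended the calls of Trf (1.33, adjusted p = 0.0931) and Steap4 (-1.96, adjusted p = 0.0577) and put Fth1 at -0.029. A mean of at least 5 FPKM gave 1 member lower, since Heph was then not tested, and 1864 genes lower. Ftl1 gained a call under quantile normalization (-0.44) and at a common sum (-0.37), where Fth1 stood at -0.041. Quantile normalization moved the median of all genes to 0.12 and gave 3664 genes higher and 2622 lower. A common sum gave 2276 higher and 3193 lower. The cause of these changes was not tested, beyond the fewer genes or libraries. With 1 library left out, the log2 fold change of Fth1 lay between -0.14 and 0.30 and that of Ftl1 between -0.43 and -0.17, and the wider lists held 6 to 15 rises and 19 to 28 falls. The replicate block left all member calls as they were, with 3 higher and 2 lower, and 2147 and 2581 genes over all. Same-numbered libraries had deviations with r = -0.05, -0.12 and -0.12 across genes. With 3 libraries per group, these deviations also carry the make-up of each library. They therefore cannot show whether same-numbered libraries were handled together. The 4 ratios kept their direction under their 8 alternatives. Of 531 values for the 36 named genes of the wider lists under the alternatives, 495 kept direction and call, 23 lost a call, 7 gained one and 6 turned. Hmox2 turned to -0.025 under quantile normalization and -0.0073 at a common sum. With 1 library left out, Pcbp2 lay between -0.10 and 0.0063, Hp between -0.76 and 0.37 and Glrx5 between -0.24 and 0.12.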
